A study of Bos taurus and Sus scrofa with 10 samples.

Results

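The 8-16 cell embryo of cow (Bos taurus) was compared with the 8-16 cell embryo of pig (Sus scrofa) by RNA sequencing of total RNA. The comparison rests on 2 libraries of 10, 1 per species, with genes paired where both tables carried an identical symbol. Pairing left 13251 symbols of 22845 gene rows in the cow table and 21867 in the pig table. Symbols below 1 RPM (reads scaled to 1000000 reads of the library) in both libraries were left out of the comparison, which kept 10157 symbols.

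The study profiled oocytes, 2-4 cell embryos, 8-16 cell embryos, morulae and blastocysts in both species, with 1 library for each stage and species, and its title places them in work on DNA methylation and imprinted genes before implantation. The labels name no treatment or genetic change and give no breed, no age or source of the animals, and no statement of whether embryos grew in the animal or in culture. They do not say how many oocytes or embryos went into a library. No difference between the species therefore has a replicate check, no test against the spread between embryos was possible, and intervals cover counting error only. The tables had been scaled separately, so each symbol was given its percentile rank within its own library, from 0 (lowest) to 100 (highest) among the 13251 paired symbols, and the difference is cow minus pig in percentile points. A symbol was called different at 40 points or more.

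An early mammalian embryo begins with RNA that the oocyte made and stored. This maternal RNA is adenylated, translated and then destroyed during the first cleavages, while the embryo's own genome is switched on. In cattle the main wave of genome activation is usually placed at the stage studied here, and in pigs at an earlier cleavage. Genes for ribosomes, splicing and nuclear proteins are typical early products of the activated genome, and genes such as those for the zona pellucida or for oocyte growth factors are purely maternal.

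The cow library held 5432346 reads and the pig library 3166110, of which 72.6% and 81.3% fell in gene rows and 10.7% and 10.9% in mitochondrial genes. At least 1 RPM was found for 11074 genes in cow and 11501 in pig. A count of 0 reads allows up to 3 reads, which is 0.552 RPM in cow and 0.948 RPM in pig. The labelled stage was checked against markers. The summed level of oocyte markers was 781 RPM in cow (1 of 9 at 0) and 3633 RPM in pig (0 of 9 at 0), below the oocyte libraries at 6026 and 7160 RPM. Trophectoderm markers summed to 9.02 and 5.05 RPM, with KRT8 at 0 in both, against 2667 and 6626 RPM in the blastocyst libraries. Cumulus cell markers summed to 155 RPM in cow (8 of 23 at 0) and 231 RPM in pig (7 of 18 at 0), against 609 and 183 RPM in the oocyte libraries. These sums cover different sets, since HAS2, the highest in cow at 50.8 RPM, is not among the pig markers. The protamine genes PRM1 and PRM2, used as sperm markers, were at 0 in both 8-16 cell libraries and in every other library. The summed sperm markers were 18.4 RPM in cow (8 of 14 at 0) and 24.3 RPM in pig (9 of 14 at 0), with ODF2 as the highest. In cow CRISP2 was at 3.31, ZPBP at 2.02 and AKAP4 at 1.29 RPM.

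Most symbols ranked within 20 points of each other in both species, with a tail of large differences in each direction. Across the 10157 compared symbols Spearman's rank correlation was 0.562, a description across genes, which are not independent replicates and share gene length between the libraries. The median rank difference was 0.166 points, with quartiles at -15.2 and 14.3, and 6261 symbols (61.6%) lay within 20 points. By 40 points or more, 439 symbols ranked higher in cow (4.32% of those compared) and 534 ranked higher in pig (5.26%), together 9.58%. In the plot of ranks, a symbol without reads sits at percentile 11.3 in cow or 10.7 in pig, and the vertical and horizontal rows at the edges are those symbols.

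**Figure D1:**
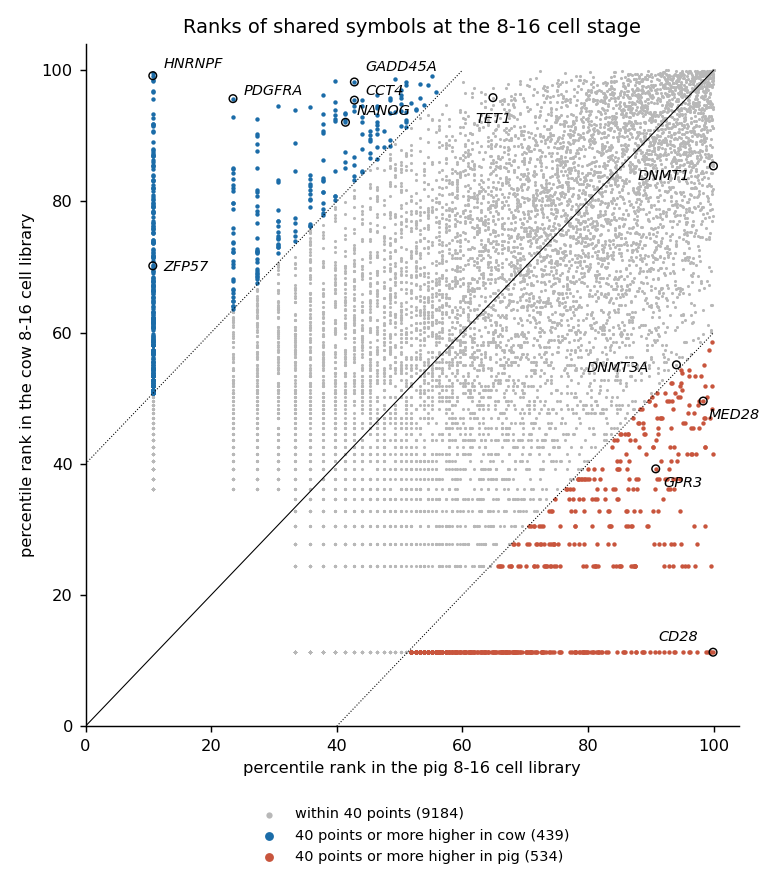
Percentile rank in the cow 8-16 cell library (vertical axis) against that in the pig 8-16 cell library (horizontal axis) for the 10157 compared symbols, 1 point each. The solid line marks equal rank and the dotted lines 40 points; 439 symbols lie above the upper one (blue) and 534 below the lower one (red), with circled genes described in the text.

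How a gene row was drawn in each table moved with these calls. The span from a row's start to its end was at least 3-fold longer in cow for 71 of the 439 symbols higher in cow (16.2%), against 1.52% of all compared symbols. It was at least 3-fold longer in pig for 179 of the 534 symbols higher in pig (33.5%), against 9.86% of all. Without symbols whose spans were 3-fold or more apart, 327 symbols ranked higher in cow and 395 in pig, of 9002. The other species' library had 0 reads for 246 of the 439 symbols and for 267 of the 534, and for 75 and 64 of them all 5 libraries of that species had 0. Of the 973 called symbols, 332 overlapped another gene row, and since the handling of strand is not given in the sources used here, their reads cannot be told apart from those of the neighbour. The part of spans and overlaps in the calls was not tested beyond leaving such rows out.

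Genes that fall between oocyte and blastocyst had already moved further in the cow 8-16 cell library than in the pig one. There were 750 symbols whose log2(RPM + 1) fell by at least 2 units between oocyte and blastocyst in both species, a choice that did not use the 8-16 cell libraries. Each symbol's position on its own course was set to 0 at the oocyte and 1 at the blastocyst of the same species. At 8-16 cells the median position was 0.446 in cow (quartiles 0.268 and 0.627) and 0.0862 in pig (quartiles -0.00817 and 0.227). Of the 750 symbols, 626 (83.5%) were further along in cow, and 314 in cow against 56 in pig had passed the middle of the course.

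That gap was not present at the preceding stage and was smaller at the following one. In the 2-4 cell libraries the medians were -0.0262 in cow and 0.0672 in pig, and 513 of the 750 symbols were further along in pig. In the morula libraries they were 0.705 in cow and 0.546 in pig. On the scale of ranks, of the 749 falling symbols that were compared at 8-16 cells, 43 were called higher in pig (5.74%), close to the 5.26% of all symbols, and 5 higher in cow (0.668%, beside 4.32% of all). Their median rank difference was -7.34 points at 8-16 cells, against -0.0377 points between the oocyte libraries.

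Genes that rise towards the blastocyst were also further along in cow, by a smaller margin. For 996 symbols that rose by 2 or more in both species the median position at 8-16 cells was 0.328 in cow (quartiles 0 and 0.724) and 0.187 in pig (quartiles 0 and 0.453). In cow 600 of them were further along and in pig 379. By the morula the medians were 0.626 and 0.579. At 8-16 cells 49 of the 883 compared rising symbols were called higher in cow (5.55%, close to the 4.32% of all symbols) and 25 higher in pig (2.83%, beside 5.26%), with a median rank difference of 10.2 points, against 0.528 points between the oocyte libraries.

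**Figure D2:**
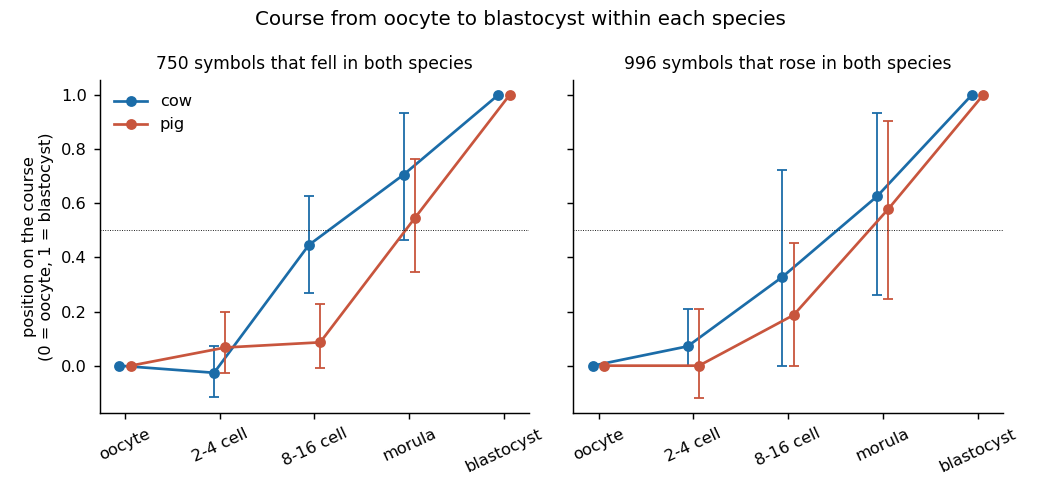
Median position between oocyte (0) and blastocyst (1) of the same species on the log2(RPM + 1) scale, for symbols that fell (left, 750) or rose (right, 996) in both species; bars give the quartiles over symbols. At 8-16 cells the falling symbols stood at 0.446 in cow and 0.0862 in pig, and the rising symbols at 0.328 and 0.187.

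Genes of the oocyte ranked lower in cow. Of 20 compared oocyte genes 17 had a rank below that in pig, with a median difference of -10.005 points, against -0.377 points between the oocyte libraries, 2.31 at 2-4 cells and -5.07 at the morula. Over all compared symbols the medians at these stages lay between -0.317 and 1.03 points. From oocyte to 8-16 cells the median change of these genes was -2.95 log2 units in cow (15 of 20 fell by 2 or more) and -0.995 in pig (5 of 20). Of all 10157 compared symbols, 912 fell by 2 or more in cow and 166 in pig. Fewer cells that hold such RNA and less RNA per cell cannot be told apart in these libraries.

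Single genes show the course by stage. Among genes chosen for their role, WEE2, the oocyte kinase that holds meiosis through CDK1, was at 698, 804, 76.2, 7.18 and 0 RPM in cow and 1976, 1532, 1313, 72.6 and 1.07 RPM in pig, in the order oocyte, 2-4 cells, 8-16 cells, morula and blastocyst, an order kept for every gene below. GDF9, a growth factor by which the oocyte acts on the follicle, was at 400.2, 452, 44.7, 8.46 and 0 RPM in cow and 1252, 682, 686, 63.9 and 15.3 RPM in pig, with a row that overlaps another. On the log2(RPM + 1) scale, the steepest drop of both genes before the blastocyst came in cow between 2-4 and 8-16 cells. In pig it came between 8-16 cells and the morula. For WEE2 in cow the next step, to the morula, was nearly as steep. At 8-16 cells WEE2 differed by -11.4 points and GDF9 by -16.8, both short of the 40 points that make a call. The percentile of WEE2 was 88.3 in cow and 99.8 in pig.

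BMP15, the partner of GDF9, stood at 1181, 1399, 404, 46.2 and 0 RPM in cow and 2361, 1648, 1476, 79.6 and 5.09 RPM in pig, a rank difference of -1.4 points. MOS, the kinase that holds the egg in metaphase, was at 13.6, 22.5, 2.76, 0 and 0 RPM in cow and 92.1, 30.9, 29.1, 1.33 and 1.34 RPM in pig. Its difference at 8-16 cells was -27.9 points. Not every maternal gene kept a high level in pig: ZP3, a zona pellucida glycoprotein, was at 147, 87.2, 10.1, 1.8 and 0 RPM in cow and 127, 3.62, 16.4, 3.33 and 0 RPM in pig, and ZAR1, a maternal RNA-binding protein, at 22.1, 38.1, 2.02, 0.256 and 0 RPM in cow and 99.5, 3.38, 3.47, 1.33 and 0 RPM in pig. These 2 genes had already dropped in the pig 2-4 cell library, and their ranks at 8-16 cells differed by -3.65 and -2.6 points. GPR3, the receptor that keeps cAMP high in the oocyte, was the 1 called member, at 25.8, 35.6, 1.47, 1.54 and 0 RPM in cow and 61.6, 72, 115, 99.9 and 97.6 RPM in pig, with a difference of -51.6 points. The GPR3 row spans 993 bases in cow and 51571 in pig and overlaps another row, and the part of this in the result was not tested.

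The machinery that stores and destroys maternal RNA had no call among its 32 compared genes, and the median difference was 1.33 points, with a lowest of -20.9 and a highest of 25.6. BTG4, the adaptor that brings the CCR4-NOT deadenylase to maternal RNA, was at 1723, 1917, 373, 22.1 and 1.13 RPM in cow and 1674, 670.3, 635, 34 and 20.9 RPM in pig. CNOT1, the scaffold of that complex, was at 598, 606, 549.7, 617 and 507 RPM in cow and 363, 243, 275, 482 and 409 RPM in pig. In both species the steepest drop of BTG4 in log2(RPM + 1) came between 8-16 cells and the morula. In cow this order depends on the added 1. CNOT1 did not go below 243 RPM in any library, and the rows of both genes overlap another row. Their rank differences were -0.898 and 2.32 points.

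Genes of the protein synthesis machinery ranked higher in cow. Of 46 compared cytosolic ribosomal protein genes, 43 ranked above pig, with a median difference of 23.6 points. Called were 6 higher in cow and 2 higher in pig, beside 4.32% and 5.26% of all symbols. The same list stood at 10.8 points between the oocyte libraries, 21.0 at 2-4 cells and 0.564 at the morula, so the separation was present before 8-16 cells and near 0 at the morula. Within cow the median member was higher by 2.06 log2 units than in the oocyte, and within pig by 0.83; the step to the morula was 0.62 in cow and 2.44 in pig.

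Several called ribosomal members had no reads in any pig library. RPL17, of the large subunit, was at 26.6, 24.1, 67.7, 124 and 194 RPM in cow and listed at 0 in every pig library, although every cell uses it. Its row spans 4562 bases in cow and 542 in pig. RPL36 was likewise listed at 0 throughout in pig, and RPL35A was at 7.91, 11.7, 28.5, 47.4 and 44.6 RPM in cow and 0, 0, 0, 1.33 and 10.5 RPM in pig. The median of the list does not rest on such rows: it was 25.5 points without symbols that had 0 reads in all libraries of one species, and 22.4 without those whose spans were 3-fold or more apart.

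Genes that build ribosomes in the nucleolus showed a smaller shift in the same direction. Of 72 compared, 61 ranked higher in cow. Called were 4 higher in cow, a share near the 4.32% of all symbols, and 0 in pig. The median was 14.7 points (6.54 between the oocyte libraries, 12.3 at 2-4 cells, 4.89 at the morula). NOL6, a nucleolar protein of small subunit assembly, was at 27.2, 33.6, 69.95, 37.7 and 11.8 RPM in cow and 3.26, 0, 3.47, 15.7 and 3.75 RPM in pig. RRS1, an assembly factor of the large subunit, was at 55, 93.5, 44.9, 16.4 and 17.8 RPM in cow and 0.888, 1.93, 0.316, 2.66 and 0.536 RPM in pig. Pig RRS1 stayed at 8 reads or fewer in each library, while pig NOL6 reached its highest level at the morula. TCOF1, which aids ribosomal RNA transcription, differed by 43.6 points and NHP2, a protein of H/ACA particles, by 69.4, the latter listed at 0 in all pig libraries with a row of 463 bases.

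Translation initiation factors had a median of 8.83 points over 31 genes. Beside 4.32% and 5.26% of all symbols, 1 was called higher in cow and 0 in pig. That gene was EIF3F, a subunit of the initiation complex eIF3, at 7.1, 6.98, 12, 23.1 and 53.1 RPM in cow and 0, 0, 0.316, 4.66 and 32.7 RPM in pig. EIF1AX, chosen as a gene known to rise when the bovine genome is activated, was at 82.4, 58.6, 719, 383 and 276 RPM in cow and 77.3, 84.6, 169, 734 and 239 RPM in pig. In cow it rose between 2-4 and 8-16 cells and in pig its highest level came at the morula, yet both libraries ranked it near the top and the difference was 5.64 points.

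Splicing factors and hnRNP proteins, which process new transcripts, had a median of 9.65 points over 45 genes, with 39 above 0, against 2.60 between the oocyte libraries and 6.20 at 2-4 cells. Compared with the oocyte, 20 of the 45 were higher by 2 or more log2 units in cow at 8-16 cells and 5 in pig. Of all 10157 compared symbols, 1298 rose by this much in cow and 810 in pig. SF3B5, a small subunit of the SF3b complex, was at 5.68, 2.93, 53.8, 25.9 and 10.1 RPM in cow and 0.888, 0, 1.26, 5.99 and 19 RPM in pig, a difference of 51.3 points. HNRNPF at 88.5 points and SNRPE, a core protein of the spliceosomal particles, at -61.4 points were also called. HNRNPF was listed at 0 in all pig libraries, from a row of 4789 bases on chromosome X, and SNRPE was nearly without reads in cow, from a row of 276 bases.

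RNA polymerase II and Mediator subunits had a median of 6.31 points over 31 genes. Among them 3 were called higher in cow and 1 in pig, beside 4.32% and 5.26% of all symbols. The Mediator subunit MED10 was at 27.2, 41.9, 50.6, 21.8 and 10.3 RPM in cow and 0, 0, 2.84, 6.33 and 3.22 RPM in pig, and MED28, another subunit, was at 4.26, 8.11, 3.68, 7.69 and 8.67 RPM in cow and 363, 318, 438, 86.6 and 42.1 RPM in pig. The difference of MED28 was -48.8 points, and pig had the higher rank at every stage. Regulators linked to genome activation, among them KLF, NFY and SP factors, had a median of 5.70 points over 19 genes. Only OTX2, a homeodomain factor, was called, at 4.23 RPM in cow and 0 in all pig libraries, and its row was 834 bases long in pig. KLF5, also a factor of the pluripotent embryo, was at 30.8, 11.7, 188, 274 and 449 RPM in cow and 23.4, 22.5, 33.8, 126 and 529 RPM in pig, with a difference of 19 points.

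Nuclear-encoded subunits of the respiratory chain had a median of 14.1 points over 44 genes. Of these, 6 were called higher in cow and 0 in pig, beside 4.32% and 5.26% of all symbols. The median was no larger than at 2-4 cells, where it was 18.9 points, and it was 7.72 in the oocyte and 2.09 at the morula. NDUFC2, a subunit of complex I, was at 0.406, 0, 7.73, 17.7 and 47.3 RPM in cow and 0.592, 0, 0, 7.99 and 7.51 RPM in pig. The larger differences of NDUFA4 (81 points), UQCRFS1 (80.9) and COX7B (78.3) come with rows listed at 0 in every pig library. Without symbols at 0 throughout one species the list's median was 15.4 points. The 6 paired genes of the mitochondrial genome lay between -0.294 and 0.0377 points: COX1, the catalytic subunit of complex IV, was at 15499 RPM in cow and 36367 RPM in pig at 8-16 cells, the highest RPM value among paired symbols in both.

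**Figure D3:**
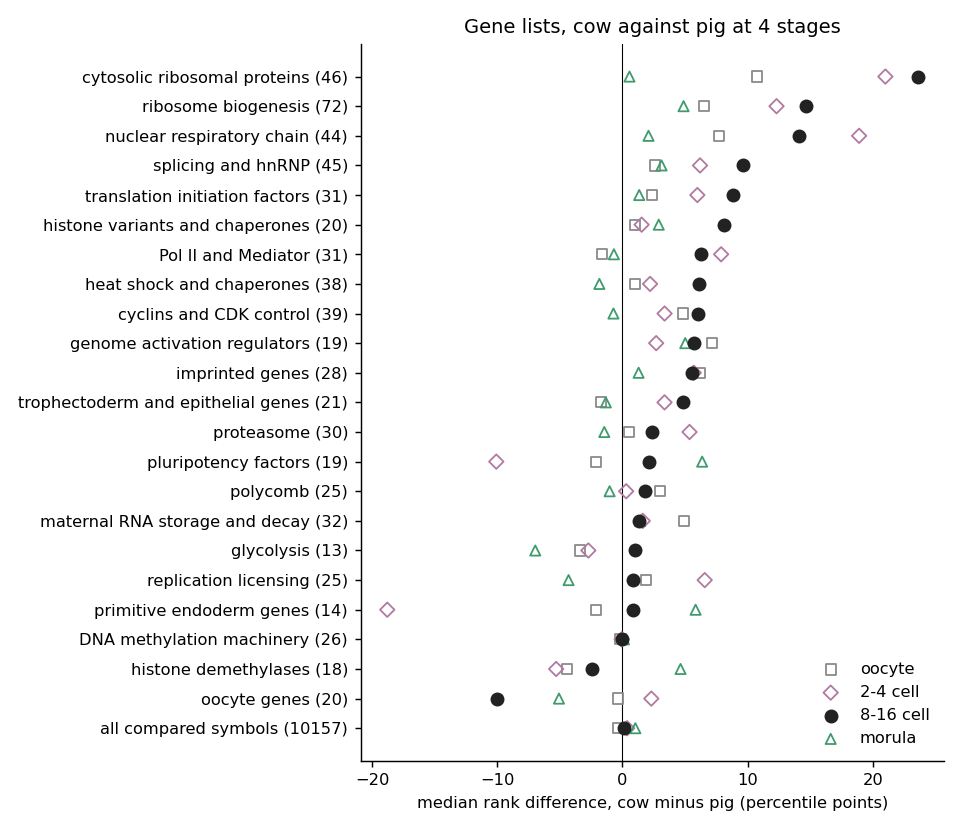
Median rank difference, cow minus pig in percentile points, of each gene list at the oocyte (squares), 2-4 cell (diamonds), 8-16 cell (filled circles) and morula (triangles) stages, over the members compared at 8-16 cells (number in brackets). Ribosomal protein genes stood at 23.6 points and oocyte genes at -10.005 at 8-16 cells, and at 0.564 and -5.07 at the morula.

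Cell cycle genes were mixed. Cyclins and their kinase regulators had a median of 6.04 points over 39 genes. Calls numbered 4 higher in cow and 0 in pig, beside 4.32% and 5.26% of all symbols. CCNA1, the germline A-type cyclin, was at 5.27, 8.79, 48, 40.5 and 2.4 RPM in cow and 0.296, 0, 0, 3.66 and 2.68 RPM in pig. CDKN1B, the inhibitor p27, was at 38.1, 56.5, 28.5, 16.2 and 17.2 RPM in cow and 1.18, 0, 0.632, 8.33 and 4.56 RPM in pig. CCNA1 was highest in cow at 8-16 cells and at the morula, while CDKN1B was low in every pig library. WEE1, the somatic relative of WEE2, was at 1.22, 0.676, 38.8, 42.1 and 26.4 RPM in cow and listed at 0 in all pig libraries, with a row of 2266 bases against 13854 in cow. CCNB1, the mitotic cyclin, differed by 1.38 points, at 502 RPM in cow and 335 RPM in pig.

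Replication licensing genes showed no call among 25 and a median of 0.883 points. PCNA, the sliding clamp of DNA polymerase, was at 309.7, 212, 331, 111 and 83.8 RPM in cow and 2962, 4190.1, 2888, 646 and 199 RPM in pig, near the top of both libraries, and MCM6, of the replicative helicase, differed by -3.66 points. Histone variants and histone chaperones had a median of 8.10 points over 20 genes with 1 called higher in cow, beside 4.32% of all symbols. That gene was the linker histone H1F0, at 25.6, 39.4, 21.9, 61.5 and 10.01 RPM in cow and 0, 0, 0.948, 2 and 1.34 RPM in pig. Its row spans 2206 bases in cow and 585 in pig.

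H2AFZ, the histone variant H2A.Z, chosen for its role, rose by more than 2 log2 units from oocyte to 8-16 cells in both species. It was at 1.83, 2.03, 1288, 534 and 226 RPM in cow and 20.7, 10.6, 102, 268 and 171 RPM in pig. From oocyte to 8-16 cells the change was 8.83 log2 units in cow and 2.25 in pig, with the pig maximum at the morula, and the 8-16 cell intervals of 1258 to 1318 and 91.8 to 114 RPM do not touch. The rank difference was 10.4 points.

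The DNA methyltransferases ranked higher in pig and the oxidising enzyme TET1 ranked higher in cow, none of them by enough for a call. DNA methylation is kept through replication by DNMT1 with UHRF1, laid down by DNMT3A and DNMT3B and removed with the help of TET enzymes. The full list of 26 compared genes had a median of -0.0491 points, beside 0.166 over all symbols. It held 4 calls higher in cow and 2 in pig, where 4.32% and 5.26% of all symbols were called. The enzymes are described singly, chosen for their roles.

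DNMT1 (in the tables at chromosome 7, 15913446 to 15956917, in cow and chromosome 2, 68981566 to 69029855, in pig, in the builds UMD3.1 and Sscrofa11.1 that the submitters' processing notes name) was at 400.0, 557, 57.4, 25.9 and 22.2 RPM in cow and 34449, 11849, 9853, 362 and 30.03 RPM in pig. In pig it had the highest RPM value of any nuclear paired symbol at 8-16 cells, a rank that also grows with transcript length, while in cow it stood at percentile 85.4, a difference of -14.6 points. Its cofactor UHRF1 went the other way, at 356, 619.8, 62.8, 9.75 and 3.74 RPM in cow and 41.4, 38.7, 30.6, 2 and 5.36 RPM in pig, and differed by 11.5 points.

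DNMT3A was at 13.6, 19.2, 5.71, 1.03 and 178 RPM in cow and 175, 166, 176, 21 and 42.4 RPM in pig, a difference of -39 points, just short of a call. DNMT3B was at 109.7, 139, 11.4, 3.59 and 157 RPM in cow and 412, 414, 282, 91.6 and 114 RPM in pig, a difference of -32.6 points. In both genes the cow level was lowest at the morula and high again at the blastocyst. In pig DNMT3A was close to its 2-4 cell level at 8-16 cells, and DNMT3B was below it. The DNMT3A row is 29264 bases long in cow and 106797 in pig and the DNMT3B row 20714 and 93637; the part of this in the rank differences was not tested.

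TET1 was at 2.03, 2.48, 203, 459 and 625 RPM in cow and 4.14, 10.4, 14.8, 109.9 and 420.4 RPM in pig, a difference of 30.9 points that did not reach a call, from a row that overlaps another. Its cow level was 6.07 log2 units above the oocyte at 8-16 cells and its pig level 1.62 above. TET2 differed by -5.24 points and TET3 by -4.68. GADD45A, a stress protein linked to demethylation, was called at 55.4 points, at 61.1, 71.9, 369, 36.2 and 24.6 RPM in cow and 1.18, 1.45, 2.84, 6.33 and 59.5 RPM in pig, with its cow maximum at 8-16 cells and its pig maximum at the blastocyst. TDG, a base excision glycosylase, was called at -47.6 points, with 2 reads in cow and 31.6 RPM in pig.

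The zinc finger proteins that protect imprints differed in opposite directions. ZFP57 was at 0, 0, 17.7, 11.3 and 0.987 RPM in cow and 0, 0, 0, 6.33 and 39.9 RPM in pig, a difference of 59.5 points, so that reads appeared in cow at 8-16 cells and in pig at the morula. ZNF445, which shares this task, was at 20.5, 26.4, 3.68, 4.87 and 5.71 RPM in cow and 184, 156, 105, 19.98 and 25.2 RPM in pig, a difference of -40.2 points. Rows of both genes overlap another row. The ZNF445 row spans 8588 bases in cow and 35076 in pig, and the part of this in its call was not tested. TRIM28, the corepressor they recruit, differed by 3.85 points.

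Imprinted genes, expressed from one parental copy, had a median of 5.54 points over 28 genes. Called were 1 higher in cow and 2 in pig, shares near the 4.32% and 5.26% of all symbols. NDN, a paternally expressed gene with a single exon, was at 0.609, 0.225, 26.5, 10.002 and 9.87 RPM in cow and 0, 0, 0, 6.66 and 19.8 RPM in pig. TFPI2, a protease inhibitor of the placenta, was at 0, 0, 0, 0 and 0 RPM in cow and 72.2, 34.3, 19.9, 10.7 and 0 RPM in pig. Reads of NDN rose in cow at 8-16 cells and appeared in pig at the morula, while TFPI2 fell along the pig course and was without reads in cow. PLAGL1, a zinc finger gene, was called at -40.4 points, at 23.5, 21.9, 3.31, 3.85 and 0.0705 RPM in cow and 129, 72, 94.8, 36.6 and 0.536 RPM in pig, with rows of 1224 and 67074 bases.

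Among factors of the first cell lineages some ranked far higher in cow and others did not. The 19 compared pluripotency factors had a median of 2.11 points. Of the 19, 3 were called higher in cow and 0 in pig, beside 4.32% and 5.26% of all symbols. NANOG, the epiblast homeodomain factor (chromosome 5, 101871073 to 101876226, in cow and chromosome 5, 62932575 to 62939035, in pig), was at 0, 0, 116, 76.4 and 14.5 RPM in cow and 0, 2.42, 2.53, 2.66 and 0 RPM in pig. The cow 8-16 cell value has an interval of 107 to 125 RPM and the pig value, from 8 reads, 1.28 to 4.99 RPM. No pig library exceeded 2.66 RPM, and the difference was 50.7 points at 8-16 cells, 45.6 at the morula and 49.1 at the blastocyst. Before, it was -2.09 in the oocyte and -33.3 at 2-4 cells, where pig had 10 reads and cow 0.

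ZFP42, also called REX1, was at 0, 0, 24.1, 34.1 and 91.7 RPM in cow and 0, 2.42, 1.26, 16 and 32.7 RPM in pig, a difference of 41.3 points at 8-16 cells. SOX2, which works with the other core factors, differed by 4.9 points, with 2.76 RPM in cow and 2.53 RPM in pig. MYC, a growth regulator, was at 0, 0, 25.8, 6.67 and 0.987 RPM in cow and 0, 1.93, 15.2, 5.33 and 2.68 RPM in pig, and both species had their highest value at 8-16 cells.

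The 14 compared primitive endoderm genes had a median of 0.841 points. Of the 14, 3 were called higher in cow and 1 in pig, beside 4.32% and 5.26% of all symbols. PDGFRA, the receptor of this lineage (chromosome 6, 71373513 to 71421283, in cow and chromosome 8, 40977604 to 41018506, in pig), was at 4.46, 0, 198, 130.3 and 269.7 RPM in cow and 0, 1.21, 0.316, 1.33 and 3.75 RPM in pig, a difference of 72.2 points. All cow libraries from 8-16 cells onwards were above all pig libraries. GATA6, which marks the same lineage, was by contrast at 0, 0, 35, 232 and 226 RPM in cow and 0, 4.83, 19.6, 234 and 261 RPM in pig, and differed by 10.4 points. GATA4, its relative, was at 1.01, 1.13, 0.184, 0.256 and 6.21 RPM in cow and 33.5, 23.9, 23.7, 12.3 and 4.02 RPM in pig, with a difference of -47 points. The matrix proteins SPARC and FN1 differed by 50.7 and 47.4 points, at 9.2 and 7.18 RPM in cow and 0 reads in pig. SPARC was listed at 0 in every pig library, beside 305 RPM in the cow blastocyst. FN1 was at 48.8 RPM in the pig blastocyst.

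Trophectoderm and epithelial genes had a median of 4.87 points over 21 genes with 2 called higher in cow, beside 4.32% of all symbols. AQP3, a water and glycerol channel of the blastocyst wall, was at 7.71, 5.41, 112, 765 and 151 RPM in cow and 0, 0, 0, 0.333 and 73.5 RPM in pig, a difference of 81.1 points. DSG2, a desmosomal cadherin, was at 8.52, 2.93, 12.5, 107 and 282 RPM in cow and 0, 0.967, 0.316, 21 and 515 RPM in pig, a difference of 42 points. Both genes were present in all cow libraries, and in pig they gathered reads late, AQP3 at the blastocyst and DSG2 from the morula.

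**Figure D4:**
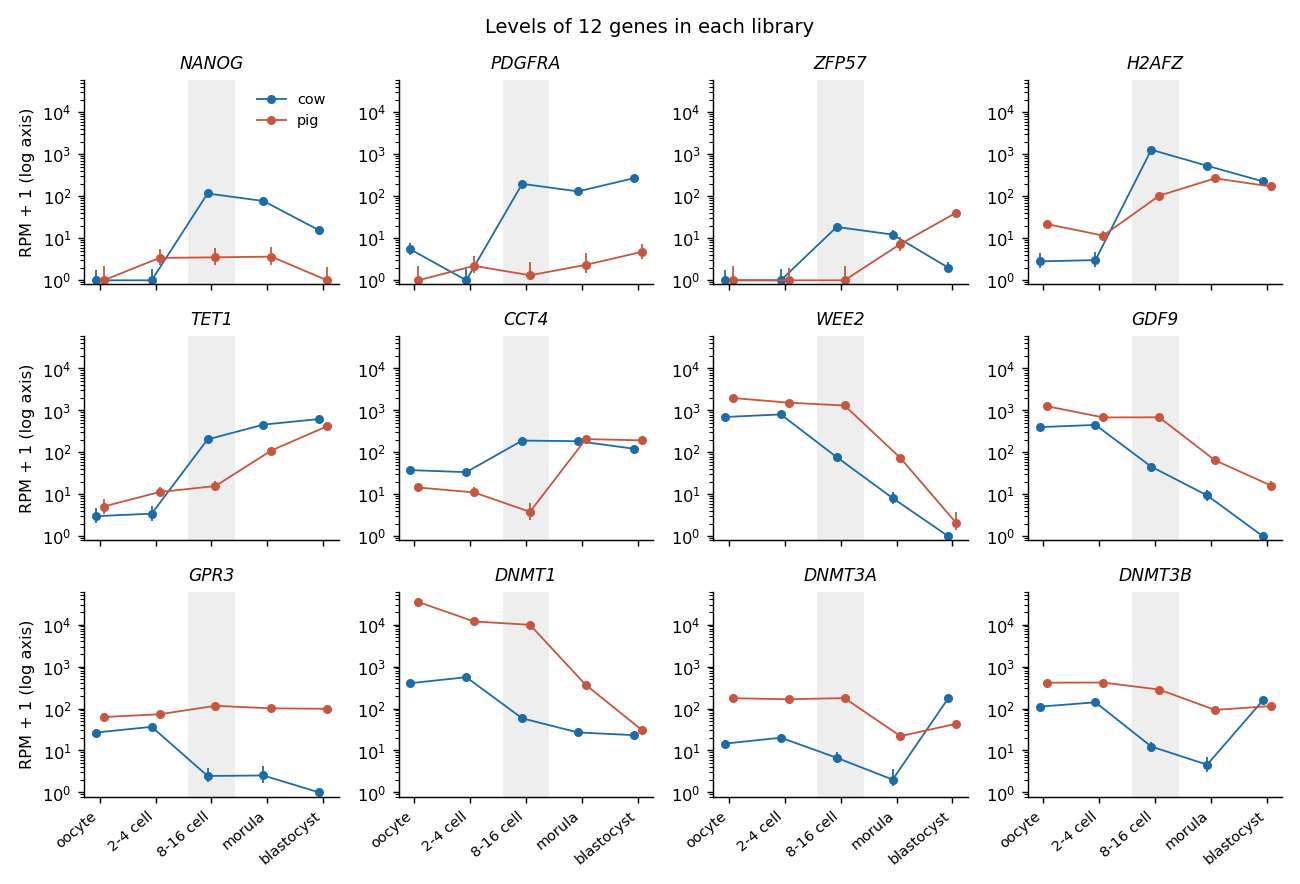
RPM + 1 on a log axis in the 5 cow libraries (blue) and 5 pig libraries (red) for 12 genes, with 95% Wilson intervals of counting error; the 8-16 cell stage is shaded. At that stage NANOG stood at 116 RPM in cow and 2.53 in pig, and DNMT1 at 57.4 and 9853.

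The remaining lists had few calls. Chaperones had a median of 6.15 points over 38 genes, with 1 called in each direction. Over all symbols 4.32% were called higher in cow and 5.26% higher in pig. CCT4, a subunit of the chaperonin that folds actin and tubulin, was at 36.9, 32.9, 191, 184 and 121 RPM in cow and 13.6, 10.1, 2.84, 207 and 193 RPM in pig, a difference of 52.6 points, beside 11.5 points at 2-4 cells and 0.0453 at the morula. The pig 8-16 cell value, from 9 reads, was the lowest of the 5 pig values. HSPA12A, a distant HSP70 relative, differed by -55.6 points, from rows of 31411 bases in cow and 176608 in pig.

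Antioxidant genes had a median of 2.47 points over 21 genes. They held 3 calls higher in cow and 1 in pig, beside 4.32% and 5.26% of all symbols. TXN, the redox protein thioredoxin, was called at 62.1 points with 0 reads in all pig libraries. Proteasome subunits had a median of 2.36 points over 30 genes and no call; PSMD12 of the regulatory particle was at 212 RPM in cow and 193 RPM in pig. Polycomb genes had a median of 1.77 points over 25, with PHF19, which links the complex to chromatin, called at -78.6 points and PCGF1, a subunit of the other complex, at 42.1. Glycolysis genes had a median of 1.03 points over 13, with PFKP, the platelet phosphofructokinase, called at -42.5 points. Histone demethylases had a median of -2.45 points over 18 genes and no call, and KDM1A, which demethylates lysine 4 of histone H3, differed by 6.53 points.

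Markers of cumulus cells had a median of -0.381 points over 11 compared genes, 5 above 0 and 6 below, with a lowest of -38.9. Called were 2 higher in cow and 0 in pig, beside 4.32% and 5.26% of all symbols. GJA1, the gap junction protein, was at 51.9, 33.8, 30.4, 2.05 and 0.846 RPM in cow and 0, 0, 0, 0.999 and 5.36 RPM in pig. TNFAIP6, of the cumulus matrix, was at 6.44 RPM in cow and 0 reads in pig. Without a call, VCAN stood at 8.84 RPM in cow and 139 RPM in pig, and GREM1 at 0.184 and 13.3 RPM. Only 5 of 15 sperm and testis markers were compared, with a median of 19.2 points and no call. ODF2, which somatic cells also use, differed by -6.71 points and so ranked higher in pig. Whether cumulus cells or sperm add to any of these results was not tested.

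Symbols called at 8-16 cells were often called in the same direction at the other stages, whose pairs of libraries share no library with this one. Of the 439 symbols higher in cow, 132 (30.1%) were also called higher in cow between the oocyte libraries, 142 (32.3%) at 2-4 cells, 136 (31.0%) at the morula and 94 (21.4%) at the blastocyst. Over all compared symbols the shares called higher in cow were 4.42%, 4.72%, 3.6% and 5.03% at these stages. Of the 534 symbols higher in pig, 226 (42.3%), 243 (45.5%), 196 (36.7%) and 113 (21.2%) were also called higher in pig, against 5.16%, 6.02%, 5.04% and 5.32% of all. In either direction 9.58%, 10.7%, 8.64% and 10.4% of all compared symbols were called at these stages. A call in the opposite direction was found for at most 5 of the 439 and 8 of the 534, both at the blastocyst. The spans of the rows moved with these calls as well: without symbols whose spans were 3-fold or more apart the shares at the oocyte were 24.8% and 38.5% and at the blastocyst 11.6% and 14.7%.

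**Figure D5:**
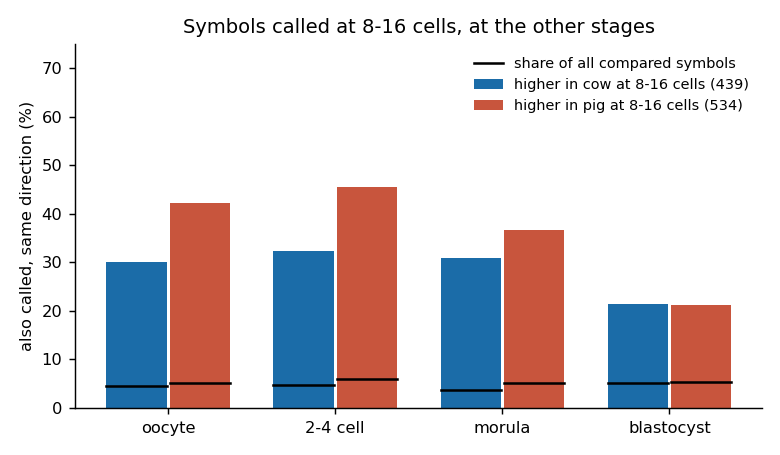
Share of the symbols called at 8-16 cells that were also called in the same direction at each other stage (bars, percent), for the 439 higher in cow (blue) and the 534 higher in pig (red); black lines give the share of all compared symbols called in that direction. The bars lie between 21.2% and 45.5% and the lines between 3.6% and 6.02%.

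At all 5 stages 35 symbols were called higher in cow and 40 higher in pig. Of the 35, 27 were listed at 0 in all 5 pig libraries, and of the 40, 4 in all 5 cow libraries. The 5 with the largest mean difference in cow were CALM2, HNRNPF, ARPP19, HMGN2 and TMSB4X, each with a cow row at least 3-fold longer than the pig row. CALM2, one of the calmodulin genes, was at 957, 899, 870.2, 791 and 543 RPM in cow and listed at 0 in all pig libraries, from rows of 7057 and 591 bases.

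In pig the 5 were FREM2, CFAP65, SLC22A13, BCL2L15 and DYRK4, of which 3 had a pig row at least 3-fold longer and FREM2 and DYRK4 did not. FREM2, an extracellular matrix protein, was at 0, 0, 0, 0 and 0.282 RPM in cow and 1272, 907, 909, 93.9 and 46.7 RPM in pig. DYRK4, a protein kinase, was at 0, 0, 2.58, 0 and 0 RPM in cow and 181, 197, 278, 116 and 60.6 RPM in pig. The FREM2 and DYRK4 rows overlap another row, and at each stage the pig library held the higher value.

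At 8-16 cells and at no other stage 179 symbols were called higher in cow and 156 higher in pig. Chosen by another rule, symbols called at 8-16 cells with a difference under 20 points at both neighbouring stages numbered 49 higher in cow and 36 higher in pig; some of them, such as ZFP57, P3H2 and GRIN2B, were past 40 points at the oocyte or the blastocyst. The 6 largest of these in cow were NDN and ZFP57, both described above, FAM46D, RND3, SLC25A28 and CAPZA2. RND3, a small GTPase that loosens actin fibres, was at 0.406, 0, 94.1, 217 and 80.2 RPM in cow and 0.296, 0.483, 0.632, 62.3 and 25.2 RPM in pig. SLC25A28, which carries iron into mitochondria, was at 5.07, 11.9, 55, 3.08 and 29 RPM in cow and 0, 2.66, 0.316, 10.3 and 7.24 RPM in pig. CAPZA2, which caps actin filaments, was at 22.5, 11, 48.6, 44.4 and 86.4 RPM in cow and 1.48, 1.93, 0.316, 32.3 and 43.2 RPM in pig. In all 3 genes the cow value at 8-16 cells was above both earlier stages, while the pig value stayed at 2.66 RPM or less up to 8-16 cells and was at least 10.3 RPM at the morula. FAM46D, a poly(A) polymerase relative, differed by 64.5 points, from rows of 24146 and 1173 bases.

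In pig the 6 largest were GCDH, P3H2, OSR2, MAP3K2, GRIN2B and TRANK1, and the rows of all 6 were within 3-fold in length. Each had 0 reads in the cow 8-16 cell library, and their pig values of 11.05 to 26.5 RPM were low beside those of the symbols above. GCDH, a mitochondrial enzyme of lysine breakdown, was at 6.29, 10.4, 0, 2.05 and 16.6 RPM in cow and 57.7, 22.5, 26.5, 5.99 and 20.4 RPM in pig, a difference of -61.7 points, from a row that overlaps another. MAP3K2, a kinase of the MAP kinase cascades, was at 2.23, 1.8, 0, 18.7 and 24.5 RPM in cow and 0.888, 2.42, 13.3, 79.3 and 20.1 RPM in pig. OSR2, a zinc finger transcription factor, was at 0.811, 2.7, 0, 0 and 0.846 RPM in cow and 10.4, 7.73, 17.1, 0 and 0 RPM in pig. P3H2, a collagen-modifying hydroxylase, was at 0, 0, 0, 0 and 15 RPM in cow and 0, 0.483, 18.3, 0 and 0 RPM in pig. P3H2 and OSR2 were highest in pig at 8-16 cells and without reads in the pig morula, while MAP3K2 had its highest level at the pig morula. GRIN2B, a glutamate receptor subunit, was at 7.1, 5.63, 0, 0.256 and 8.81 RPM in cow and 0, 5.8, 12.3, 3.33 and 1.07 RPM in pig, and the change from the oocyte was -3.02 log2 units in cow and 3.74 in pig.

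The largest differences of all were read with the row lengths beside them. Of the 12 symbols highest in cow with at least 20 RPM and no overlapping row, 7 had a cow row at least 3-fold longer than the pig row and 5 did not. Those 5 were HMGN4, IL18, AQP3, MYB and GAD1. MYB, a transcription factor of proliferating progenitors, was at 5.88, 5.86, 109.9, 15.9 and 1.83 RPM in cow and 0, 1.45, 0, 0.999 and 5.36 RPM in pig, a difference of 80.9 points. IL18, a cytokine, was at 0.811, 0, 126, 109 and 26.6 RPM in cow and 0, 0.242, 0, 0 and 0.536 RPM in pig, a difference of 82 points. Both were highest in cow at 8-16 cells and at 5.36 RPM or less in the pig libraries. HMGN4, a nucleosome-binding protein, was at 199, 164, 248, 54.9 and 14.1 RPM in cow and 0.296, 1.93, 0, 7.66 and 3.75 RPM in pig, and GAD1, which makes the transmitter GABA, at 96.8, 83.4, 67.2, 15.9 and 0 RPM in cow and 3.55, 3.62, 0, 2.33 and 0 RPM in pig; these 2 genes were already high in the cow oocyte.

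The other 7 symbols were HNRNPF, ARPP19, HIST1H2BB, NDUFA4, UQCRFS1, TMSB4X and NGDN, and 6 of them are listed at 0 in every pig library. ARPP19, which restrains the phosphatase that opposes CDK1, was at 150.3, 118, 411, 267 and 89.2 RPM in cow, and TMSB4X, which binds actin monomers, at 439, 957, 97.6, 188 and 93.1. The pig rows of ARPP19 and TMSB4X are 338 and 135 bases long and those of cow 15426 and 2066. Values listed at 0 for genes that every cell uses give no level of those genes in pig.

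Of the 12 symbols highest in pig 5 had a pig row at least 3-fold longer, namely SERTAD2, PRR16, LRRC4C, ZNF648 and CCBE1, and 7 did not. CD28, known as a costimulatory receptor of T cells (chromosome 2, 92325180 to 92358568, in cow and chromosome 15, 107127600 to 107162919, in pig), was at 0, 0, 0, 0 and 0 RPM in cow and 1562, 2217, 2429.8, 349 and 3.22 RPM in pig, the largest difference of a compared symbol in that direction at -88.6 points, with rows of 33389 and 35320 bases. NCKAP1L, a blood cell subunit of the actin-regulating WAVE complex, was at 0.609, 0.676, 0, 0 and 0 RPM in cow and 359, 221, 202, 22.6 and 16.1 RPM in pig. CCL22, a chemokine, was at 0, 0, 0, 0 and 0.0705 RPM in cow and 143, 102, 169.6, 13.7 and 4.02 RPM in pig. All 3 genes were at their highest in the first 3 pig libraries and had at most 3 reads in each cow library.

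KLF8, a zinc finger transcription factor, behaved otherwise, at 0.406, 0.225, 0, 0 and 1.76 RPM in cow and 4.44, 19.1, 113, 93.6 and 43.2 RPM in pig, with a rise of 4.39 log2 units from oocyte to 8-16 cells in pig. PHF19, ZNF514 and PLA2G4E, a polycomb partner, a zinc finger gene and a phospholipase, stood at 106, 132 and 86.2 RPM in pig with 0 reads in cow at 8-16 cells. Each had at least 66.9 RPM in the pig oocyte and 2-4 cell libraries.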

How the data were processed

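RNA sequencing was done on 1 library per stage and species, 10 in all. Per the labels' protocols, RNA was isolated with the PicoPure kit, amplified with the Ovation RNA-Seq System V2 and made into libraries with 8 PCR cycles, so reads are not independent molecules. The submitters' processing notes name Trim Galore 0.6.4, HISAT2 2.1.0 and the builds UMD3.1 and Sscrofa11.1; the counter, annotation and handling of strand are not given in the sources used here. The authors deposited 1 table of log2 values per species. From the values, these are log2 RPM (reads scaled to 1000000 of the library) with no correction for the length of a gene. A gene without reads carries the value of 0.9 read, and 100% of them gave whole reads within 0.01 of a read.

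From these, RPM, reads and percentile ranks (ties averaged) were computed with Python 3.11.15, numpy 2.4.6, pandas 2.3.3 and scipy 1.17.1. Identifiers without a symbol (4144 cow and 5666 pig rows) were left out, and of repeated symbols (190 and 97) the row with the highest mean was used. Of the 10157 compared symbols 10023 matched a RefSeq gene name. Courses used log2(RPM + 1), which understates changes of low genes. With 1 library a group no count test was run; intervals are 95% Wilson intervals. Calls were tested on simulated data.

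The pairing, the 26 gene lists and the members were chosen with earlier results of these data known. Named symbols are the 12 largest differences in each direction with at least 20 RPM and no overlap, up to 4 called members of a list (or up to 2 with the highest mean rank where none was called), the 5 largest called at all stages, and the 6 largest with neighbouring stages under 20 points; others were chosen for their role. Some results are not reported here. No sequences are shown.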

Additional observations from a re-analysis of the deposited data

Results flagged for a closer look

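Part of each library lay in gene rows that the pairing by symbol did not reach, and these reads enter none of the comparisons. In the cow 8-16 cell library 26.98% of the reads in gene rows fell outside the paired symbols, and in the pig library 18.44%. In cow 2511 such rows and in pig 2498 had at least 1 RPM. Counts of 0 allow 0.552 and 0.948 RPM in these libraries.

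GLRX2, a mitochondrial glutaredoxin, moved in opposite directions from oocyte to 8-16 cells. The change was 2.4 log2 units in cow, from 9.94 to 56.9 RPM, and -3.78 in pig, from 12.7 RPM to 0 reads. With 1 library a stage this difference between the species was not tested. The row overlaps another gene row and spans 20715 bases in cow and 8041 in pig.

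GRIN2B, a glutamate receptor subunit, also moved in opposite directions over this interval, by -3.02 log2 units in cow, from 7.1 RPM to 0 reads, and by 3.74 in pig, from 0 reads to 12.3 RPM. This difference was not tested either.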

How the results depend on the processing

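Of 259 list medians recomputed over the alternatives, 258 stayed within the 95% interval of the median over the members. On the log2 scale only the sign was compared, for medians of at least 5 points. The interval treats genes as replicates and can be wide for a short list, so staying within it says little about stability. With 5 sperm and testis markers, a median of 0.562 counted as within it. The median of the sperm and testis markers was 19.2 points, 0.562 with no minimum and -6.71 with a minimum of 5 RPM, which is the value of ODF2, the only member left. Of the results for named symbols recomputed over the alternatives, 1039 were counted as the same as in the main comparison and 90 as moved from it. No named symbol that was called changed direction. That is a weak criterion, since a call already needs a large difference in rank. The rank correlation was 0.718 with no minimum and 0.414 with a minimum of 5 RPM. Counts of called symbols (cow and pig) were 1413 and 1504 at 25 points, 200 and 246 at 50 points, 284 and 340 without overlapping genes, and 1686 and 1776 with differences of log2(RPM + 1), centred on a shift of -0.26 and called at 2. Leaving out rows with spans 3-fold apart, and symbols at 0 throughout one species, was chosen after seeing the data, as were the overlap and 20 RPM alternatives of the course.

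For symbols also called at other stages, in the order oocyte, 2-4 cells, morula and blastocyst where all are given, the cow shares were 41.5%, 43.1%, 40.2% and 27.2% and the pig shares 58.4%, 60.4%, 45.2% and 28.4% with log2 differences. At 25 points the pig shares were 46.7%, 50.7%, 44.5% and 28.0% and the first 3 cow shares 39.2%, 44.4% and 36.0%. At 50 points pig gave 47.2% at the oocyte, 28.9% at the morula and 14.6% at the blastocyst, and cow 27.0% at 2-4 cells and 36.0% at the morula. The cow share at the morula was 37.0% with ranks over all rows and 24.2% without symbols at 0 throughout one species, which gave 16.6% at the blastocyst. The pig share at the morula was 30.0% without overlapping genes. Without rows whose spans were 3-fold apart the cow shares were 24.8%, 25.1%, 21.1% and 11.6%, and the pig shares 31.4% at the morula and 14.7% at the blastocyst. The cause was not tested.

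On the course, cow stayed further along than pig by both medians in every alternative. For falling symbols (cow and pig) the medians were 0.364 and 0.0698 with a pseudocount of 0.1 and 0.510 and 0.119 with 5. The cow median was 0.407 with a change of 3, and the pig median 0.0449 when scaled to non-mitochondrial gene reads. The share further along in cow was 79.1% with a pseudocount of 0.1, 74.5% with a change of 1 and 88.6% with a change of 3. For rising symbols the medians were 0.406 and 0.279 with a pseudocount of 0.1, the pig median 0.123 with 5, and the cow median 0.386 with at least 20 RPM at the higher end. The share further along in cow was 56.0%, 64.8%, 56.5% and 64.9% with pseudocounts of 0.1 and 5, the other scaling and the 20 RPM minimum.

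No paired analysis was possible because each species and stage has 1 library, which also leaves no library to leave out. Depth limits low genes. Apart from that, 246 and 267 calls rest on 0 reads in the other species, and the part of depth in these was not tested. With the cow library thinned to the pig read total, 448 symbols were called higher in cow and 550 in pig.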
